A study of Mus musculus with 6 samples.

Results

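The expression of 8 genes of cardiac calcium handling and pacemaking, Cacna1c, Cacna1g, Slc8a1, Ryr2, Atp2a2, Pln, Hcn4 and Kcnh2, was examined in cardiac progenitor (CP) cells after knockout of Zhx1, a gene of the zinc finger and homeobox family. The members were chosen by gene symbol, and all 8 were among the 25701 genes of the table. PolyA RNA was sequenced from 3 libraries labelled Zhx1-KO and 3 libraries of control cells (46C-Ctrl). Both groups were derived from 46C, a mouse embryonic stem cell (ESC) line with GFP, a fluorescent reporter, knocked in at Sox1, and both were differentiated to the CP stage with the same factors. For the knockout, Cas9 and guide RNAs against the start and the stop site of Zhx1 were delivered to wild-type 46C ESCs, and the lines were picked by PCR, so the intended deletion dates from the ESC stage and is not restricted to a cell type. The comparison asks which genes differ between the groups at the CP stage. Whether a gene depends on Zhx1 at that stage itself cannot be told from a deletion made earlier. The sources used here do not say whether the 3 libraries of a group came from separate differentiations or how many clones they represent, so a p-value here speaks only for the variation among these libraries.

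In a heart muscle cell, the L-type calcium channel opens with each action potential, and the calcium that enters makes the ryanodine receptor release more calcium from the sarcoplasmic reticulum. The SERCA pump returns calcium to that store under the brake of phospholamban, and the sodium-calcium exchanger carries the rest out of the cell. In pacemaker cells, the HCN channels and T-type calcium channels depolarize the membrane between beats, and the potassium channels of the hERG type end the action potential.

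The sum of recovered reads per library ran from 13769967 to 15940874 in the libraries labelled Zhx1-KO and from 13801517 to 14811001 in 46C-Ctrl. The values are normalized counts, that is, reads per gene divided by 1 factor per library, and libraries are given in the order of replicates 1, 2 and 3. The replicates differed from each other beyond sampling noise, most of all 46C-Ctrl 2, with a chi-square per gene of 17.3 and 18.7 against the other control libraries and 5.88 between those, while mitochondrial genes took 2.77% of its signal against 1.72% to 1.87% in the other 5 libraries. The Zhx1 transcript had 225, 325 and 308 normalized counts in the libraries labelled Zhx1-KO, against 460, 181 and 457 in 46C-Ctrl. This gave a log2 fold change of -0.25 (95% interval -1.07 to 0.56, adjusted p = 0.579 from limma), and without 46C-Ctrl 2 it was -0.70 (adjusted p = 0.0113). The deleted part is not resolved in a value for the whole gene, so the transcript does not settle the labels. The paper also reports checks of the knockout ESCs by Zhx1 mRNA and protein, which were not examined here.

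Other cell types moved with the groups. Of the cardiomyocyte markers, 8 of 14 tested rose and 4 fell, and their summed level was 12870 to 14361 normalized counts in the libraries labelled Zhx1-KO and 10077 to 10875 in 46C-Ctrl. Among the risers, Myh7, Actc1 and Myl7 had means of 4809, 2294 and 1886 in Zhx1-KO against 3577, 572 and 841 in 46C-Ctrl. The fallers were Tnnt2, Tnni1, Tnnc1 and Ttn, with log2 fold changes of -0.55, -2.02, -1.40 and -1.04. Neuronal markers rose in 10 of 14 and fell in 0 (by limma at an adjusted or an unadjusted p under 0.05, by edgeR and by DESeq2), with sums of 4048 to 4238 in Zhx1-KO and 1791 to 1935 in 46C-Ctrl. Endothelial markers rose in 9 of 12 and fell in 2, with sums of 5342 to 5772 and 3535 to 3783 in the same order. Endoderm and epithelial markers fell in 10 of 12 and rose in 1 (21280 to 22811 in Zhx1-KO, 49157 to 55321 in 46C-Ctrl), and smooth muscle markers fell in 4 of 10 and rose in 3 (6203 to 6670 in Zhx1-KO, 16045 to 17146 in 46C-Ctrl). Most of the smooth muscle sums came from Acta2 and Tagln, with means of 2906 and 1131 in Zhx1-KO against 7928 and 6599 in 46C-Ctrl. Of the skeletal muscle markers only 2 of 12 were tested, 1 of which rose. None of the markers in the table was at 0 in every library. Markers of several cell types were thus present in both groups, and the part of these cell types in the results on the members was not tested. In bulk RNA, fewer cells of a type and less RNA per cell cannot be told apart.

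Of the 8 members, 4 were lower and 1, Cacna1g, was higher in the libraries labelled Zhx1-KO. Across all 15372 genes tested, 52.0% passed an adjusted p of 0.05 in limma, 25.6% as higher and 26.4% as lower in Zhx1-KO. Of the 7 members that passed the filter on low values, 4 were called lower (Cacna1c, Ryr2, Atp2a2 and Hcn4), 1 was called higher (Cacna1g), and Slc8a1 and Kcnh2 did not pass. The eighth, Pln, was too low to be tested. For 6 of the 7, no knockout library lay within the control range, which held for 60.8% of all genes tested. The median log2 fold change was -0.68 over the 7 members and 0.01 over all genes tested. With 7 genes chosen by function and so many genes called, these counts describe the members and no more.

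**Figure D1:**
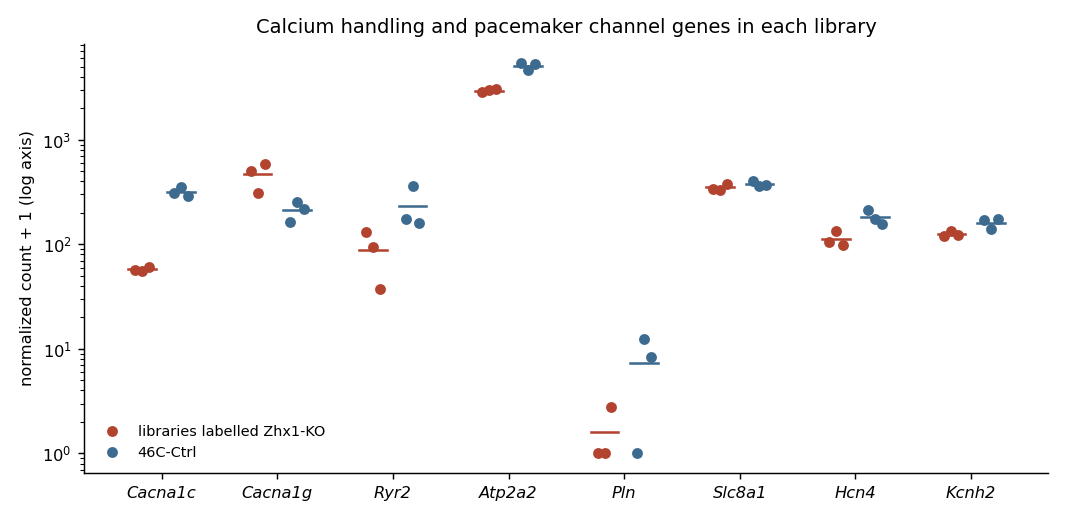
Normalized count plus 1 (log axis) of the 8 members in each library, with libraries labelled Zhx1-KO in red on the left and 46C-Ctrl in blue on the right of each pair; points are libraries and lines are means. Cacna1c shows the widest gap between the groups, Cacna1g lies higher in the Zhx1-KO libraries, and Pln is near 0 in both groups.

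Cacna1c encodes the pore of Cav1.2, the L-type channel through which most calcium enters a heart muscle cell. It lies on chromosome 6 of GRCm38 from 118587240 to 119196418 on the minus strand. Cacna1c had 55.4, 54.6 and 59.9 normalized counts in the libraries labelled Zhx1-KO (mean 56.6 ± 2.82, SD, n = 3), against 308, 349 and 290 in 46C-Ctrl (mean 316 ± 30.1, SD, n = 3). All knockout libraries lay far below all controls, and the spread inside either group was small beside the gap. The level in Zhx1-KO was 17.9% of that in 46C-Ctrl, with a log2 fold change of -2.46 (95% interval -2.76 to -2.15, adjusted p = 6.2e-06 from limma).

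The gene stands in a stretch of chromosome 6 where many genes were lower in Zhx1-KO. Between 110 and 140 Mb, 123 of 216 genes tested were called lower and 21 higher, with a median log2 fold change of -0.58, whereas the rest of the chromosome had a median of 0.02. The bounds of this stretch came from earlier results of these data. Of the 13 other tested genes that start within 1 Mb of Cacna1c, 9 were called lower in limma and 4 did not pass, and 0 were higher by limma at an adjusted or an unadjusted p under 0.05, by edgeR or by DESeq2. Relative to the median of the stretch, the log2 fold change of Cacna1c was still -1.88 (adjusted p = 1.6e-05 from limma), and it was the 12th lowest of the 216 genes.

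Cacna1g encodes Cav3.1, a T-type pore that opens at low voltage and contributes to pacemaker depolarization. It was the single member that rose. Cacna1g, on chromosome 11 from 94408391 to 94474198 on the minus strand, had 505, 308 and 588 normalized counts in the libraries labelled Zhx1-KO (mean 467 ± 144, SD, n = 3), against 161, 255 and 217 in 46C-Ctrl (mean 211 ± 47.2, SD, n = 3). The lowest knockout library lay above the highest control. The fold of the means was 2.21 and the log2 fold change was 1.12 (95% interval 0.52 to 1.72, adjusted p = 0.0081 from limma).

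As with Cacna1c, the neighbours moved too. On chromosome 11, 675 of 1185 genes tested were called higher and 114 lower, with a median log2 fold change of 0.42, and of the 31 other tested genes that start within 1 Mb of Cacna1g, 16 were called higher and 3 lower. Relative to the chromosome 11 median, the log2 fold change of Cacna1g was 0.69, and the adjusted p of 0.0566 from limma no longer passed. Its rise ranked 202nd among the 1185 genes.

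**Figure D2:**
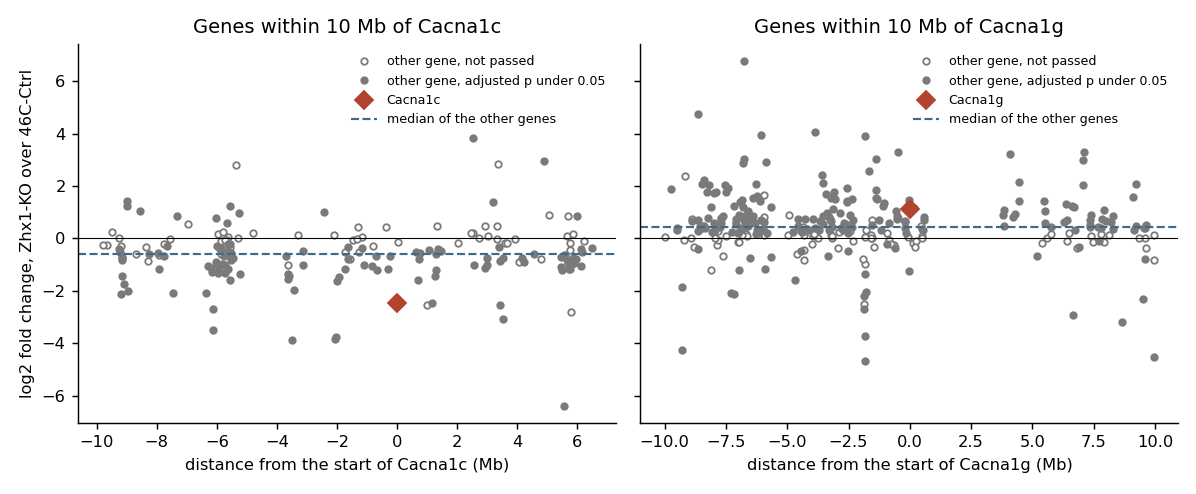
Log2 fold change (Zhx1-KO over 46C-Ctrl) of tested genes within 10 Mb of Cacna1c (left) and of Cacna1g (right), against the distance in Mb from the start of that gene in its reading direction. The dashed lines are the medians of the other genes, -0.58 around Cacna1c and 0.46 around Cacna1g, and both members (red diamonds) lie beyond these medians in the same direction.

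The pores therefore differed in opposite directions, and the ratio of Cacna1g to Cacna1c was higher in Zhx1-KO. Per kilobase of annotated exon, the level of Cacna1g was 19, 11.8 and 20.5 times that of Cacna1c in the libraries labelled Zhx1-KO, against 1.09, 1.53 and 1.57 times in 46C-Ctrl. These ratios rest on the union of all exons, 10137 bases for Cacna1g and 21191 for Cacna1c. Before that division, Cacna1c had more normalized counts than Cacna1g in every 46C-Ctrl library. Of the other voltage-gated pores, Cacna1d (Cav1.3, the L-type pore of pacemaker cells), Cacna1a, Cacna1b and Cacna1e did not pass, with log2 fold changes of -0.43, -0.23, -0.30 and -0.22 (adjusted p from 0.207 to 0.551, limma). Cacna1h, the T-type pore Cav3.2, was uneven inside both groups, with 348, 413 and 2.64 normalized counts in the libraries labelled Zhx1-KO against 0, 1.04 and 270 in 46C-Ctrl, and such a pattern gives no fold. The remaining pores, Cacna1f, Cacna1i and Cacna1s, were below the filter. Thus 1 of 7 tested pores rose, 1 fell and 5 did not pass.

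The auxiliary subunits of these channels showed no common direction, with 3 of 13 tested genes higher, 3 lower and 7 not passing. The fallers were Gem and Rrad, GTPases that restrain L-type channels, and Cacna2d2, the only subunit called lower. Gem had 58.5, 49.6 and 54.6 normalized counts in the libraries labelled Zhx1-KO, against 253, 205 and 254 in 46C-Ctrl (log2 fold change -2.11, adjusted p = 2.6e-05 from limma). Rrad fell by 1.21 on the log2 scale (adjusted p = 0.00193 from limma), and Cacna2d2, an α2δ subunit, fell by 1.46 (adjusted p = 0.0047). All genes called higher were subunits. Cacng4, a γ subunit, rose (log2 fold change 1.17, adjusted p = 0.00102 from limma). Cacng8 and Cacnb1 rose too (1.43 and 0.56 on the log2 scale, adjusted p = 0.0174 and 0.0384 from limma). Like Cacna1g, Cacng4 and Cacnb1 lie on chromosome 11, where the median log2 fold change was 0.42.

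Ryr2 encodes the ryanodine receptor of the heart, the release channel of the sarcoplasmic reticulum. On chromosome 13 from 11553102 to 12106945, minus strand, it had 131, 94 and 36.1 normalized counts in the libraries labelled Zhx1-KO (mean 87 ± 47.9, SD, n = 3), against 172, 363 and 160 in 46C-Ctrl (mean 232 ± 114, SD, n = 3). The groups did not overlap, but Zhx1-KO 3 lay low and 46C-Ctrl 2 lay high within their groups. The log2 fold change was -1.48 (95% interval -2.63 to -0.33, adjusted p = 0.037 from limma). The call was fragile: the adjusted p from limma was 0.0599 without Zhx1-KO 2, 0.0779 without Zhx1-KO 3, 0.0546 without 46C-Ctrl 1 and 0.103 without 46C-Ctrl 2, and the log2 fold change moved to -0.95 without Zhx1-KO 3 and to -1.11 without 46C-Ctrl 2. Ryr2 went against its surroundings, since 6 of the 8 other tested genes within 1 Mb were called higher in limma. None of them was lower by limma at an adjusted or an unadjusted p under 0.05, nor by edgeR or DESeq2.

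The other ryanodine receptors were uneven. Ryr1, the form of skeletal muscle, had 228, 190 and 231 normalized counts in the libraries labelled Zhx1-KO, against 75.1, 0 and 77 in 46C-Ctrl, and with a 0 listed in 46C-Ctrl 2 it did not pass (adjusted p = 0.0832 from limma). Without that library Ryr1 passed (log2 fold change 1.49, adjusted p = 2.8e-04 from limma). Among the 16 tested genes of calcium release and its membrane junctions, 7 rose, 6 fell and 3 did not pass. Asph, the locus of the release-complex protein junctin, rose with 968, 1012 and 878 normalized counts in Zhx1-KO against 449, 410 and 579 in 46C-Ctrl (log2 fold change 1.00, adjusted p = 4.6e-04 from limma). Jph3, a junctophilin best known from brain, rose (1.67 on the log2 scale, adjusted p = 9.8e-05), and so did Bin1, a membrane-bending protein of the transverse tubules (0.76, adjusted p = 2.9e-04). Of the other junctophilins, Jph2 fell (log2 fold change -0.99, adjusted p = 0.0245 from limma) and Jph4 rose (0.79, adjusted p = 0.00216). Jph1 did not pass (adjusted p = 0.312 from limma). Sri, which encodes sorcin, a calcium-binding partner of the ryanodine receptor, fell by 0.65 on the log2 scale (adjusted p = 5.0e-04 from limma).

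Atp2a2 encodes SERCA2, the calcium pump of the sarcoplasmic reticulum in heart and, in another splice form, of the endoplasmic reticulum in most cells; the gene value does not separate the forms. Atp2a2, on chromosome 5 from 122453513 to 122502225 on the minus strand, had 2861, 2967 and 3028 normalized counts in the libraries labelled Zhx1-KO (mean 2952 ± 84.3, SD, n = 3), against 5365, 4624 and 5322 in 46C-Ctrl (mean 5104 ± 416, SD, n = 3). Both groups were tight and did not overlap. The level in Zhx1-KO was 57.8% of the control level (log2 fold change -0.79, 95% interval -0.94 to -0.63, adjusted p = 5.2e-05 from limma).

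The other SERCA genes went the other way. Atp2a1, the pump of fast skeletal muscle, had 49.4, 58.7 and 56.3 normalized counts in the libraries labelled Zhx1-KO against 11.7, 4.14 and 0 in 46C-Ctrl (log2 fold change 3.79, adjusted p = 0.00678 from limma). Atp2a3, the pump known from blood and endothelial cells, had 181, 279 and 215 against 50.7, 26.9 and 33.7 in the same order (log2 fold change 2.59, adjusted p = 1.5e-04 from limma). Atp2a3 lies on chromosome 11, where the median log2 fold change was 0.42. Per kilobase of exon, Atp2a2 still made up 90.6%, 87.5% and 89.7% of the SERCA signal in the libraries labelled Zhx1-KO, against 98.6%, 99.2% and 99.3% in 46C-Ctrl. The minor pumps rose and the main pump fell, and Atp2a2 remained the most abundant SERCA transcript in each library.

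Pln encodes phospholamban, the small membrane protein that restrains SERCA2 until it is phosphorylated. Pln, on chromosome 10 from 53337667 to 53345987 on the plus strand, had 0, 0 and 1.76 normalized counts in the libraries labelled Zhx1-KO, against 0, 11.4 and 7.38 in 46C-Ctrl. These values stand for 2 and 18 reads in all, and the groups overlapped at 0. The mean was under the minimum of 10, so the gene was not tested and no fold is given. The gene shares 141 exon bases with Cep85l and 1644 with Gm47644 on the other strand, and strand was used in mapping and for the FPKM of the study, but for the whole-read counts its use is not stated in the sources. Of the other small regulators of the pump, the table held Mrln (myoregulin), which was also too low to be tested.

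Slc8a1 encodes NCX1, the sodium-calcium exchanger of heart. It was nearly level between the groups, with 339, 329 and 378 normalized counts in the libraries labelled Zhx1-KO (mean 349 ± 26.4, SD, n = 3) against 405, 361 and 371 in 46C-Ctrl (mean 379 ± 22.8, SD, n = 3). The ranges overlapped, and the log2 fold change was -0.12 (95% interval -0.34 to 0.09, adjusted p = 0.303 from limma), so a fall larger than 0.34 lies outside the interval. Slc8a1 lies on chromosome 17 from 81373105 to 81738377, minus strand, and 296 of its exon bases are shared with an antisense gene.

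Its relatives rose. Slc8a3, known from brain and skeletal muscle, had 74.6, 61.7 and 77.5 normalized counts in the libraries labelled Zhx1-KO, against 2.93, 12.4 and 10.5 in 46C-Ctrl (log2 fold change 3.08, adjusted p = 0.00124 from limma). Slc8a2, the form of brain, had a log2 fold change of 0.60 (adjusted p = 0.0343), and this call was lost without Zhx1-KO 2, Zhx1-KO 3, 46C-Ctrl 1 or 46C-Ctrl 2, with adjusted p from limma of 0.0674, 0.113, 0.0978 and 0.0692. Neuronal markers were higher in the same libraries, as given above. Per kilobase, Slc8a1 made up 27.9%, 27% and 25.3% of the exchanger signal in the libraries labelled Zhx1-KO, against 51.4%, 42% and 37.5% in 46C-Ctrl. Among all 11 tested pumps and exchangers, 5 rose, 3 fell and 3 did not pass, and the fallers included Atp2b4, a calcium pump of the plasma membrane (log2 fold change -0.95, adjusted p = 3.2e-04 from limma).

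**Figure D3:**
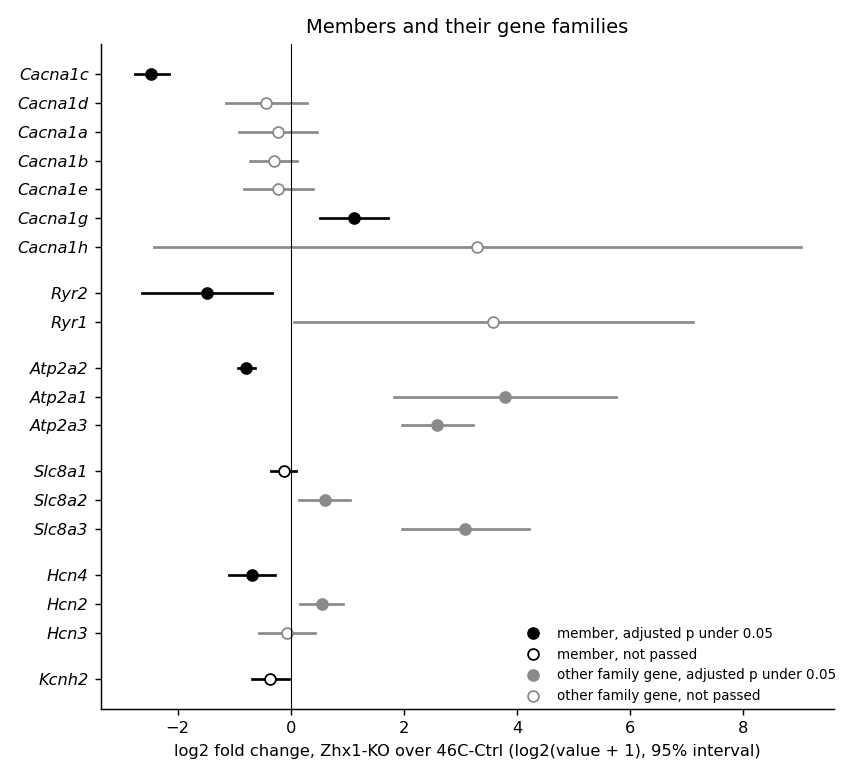
Log2 fold change (Zhx1-KO over 46C-Ctrl) with its 95% interval for the 7 tested members (black) and for other genes of their families (grey); filled points passed an adjusted p of 0.05. Atp2a2 lies below 0 while Atp2a1 and Atp2a3 lie above it, and the wide intervals of Cacna1h and Ryr1 belong to genes listed at or near 0 in some libraries.

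Hcn4 encodes the main pore of the pacemaker current and is known as a marker of the sinoatrial node and, early in development, of first heart field progenitors. Hcn4, on chromosome 9 from 58823412 to 58863175 on the plus strand, had 105, 134 and 96.8 normalized counts in the libraries labelled Zhx1-KO (mean 112 ± 19.9, SD, n = 3), against 210, 172 and 157 in 46C-Ctrl (mean 180 ± 27.1, SD, n = 3). The groups did not overlap, although the highest knockout library came near the lowest control. The level in Zhx1-KO was 62.4% of the control level (log2 fold change -0.68, 95% interval -1.09 to -0.27, adjusted p = 0.0134 from limma).

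Hcn2 and Hcn3 were set beside it. Hcn2, a form shared by heart and brain, had 173, 188 and 136 normalized counts in the libraries labelled Zhx1-KO against 117, 101 and 118 in 46C-Ctrl (log2 fold change 0.55, adjusted p = 0.0228), a call that was lost without Zhx1-KO 1, Zhx1-KO 2 or 46C-Ctrl 2 (adjusted p from limma of 0.0691, 0.0804 and 0.0591). Hcn3 did not pass (adjusted p = 0.825 from limma). Per kilobase, Hcn4 made up 19.7%, 22.9% and 22.6% of the summed signal of Hcn2, Hcn3 and Hcn4 in the libraries labelled Zhx1-KO, against 39.2%, 38.8% and 32.8% in 46C-Ctrl, and Hcn2 was the most abundant of these in every library.

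The transcription factors of the sinoatrial node were examined beside Hcn4, with 6 of 10 lower, 1 higher and 3 not passing. Tbx3, a T-box factor that maintains the pacemaker programme, had 82.6, 102 and 81.9 normalized counts in the libraries labelled Zhx1-KO, against 1519, 1340 and 1323 in 46C-Ctrl (log2 fold change -3.96, adjusted p = 4.3e-07 from limma). Gata4, a zinc finger factor of cardiac mesoderm and endoderm, had 77.6, 115 and 92.4 against 1747, 1335 and 1746 in the same order (-4.07 on the log2 scale, adjusted p = 1.8e-06). Gata6 fell by 2.30 (adjusted p = 2.1e-06) and Tbx5, a T-box factor of the first heart field, fell by 4.48 on the log2 scale (adjusted p = 7.3e-05, limma). Of the others, Tbx18, a T-box factor of the sinus venosus, rose, with 36.3, 29.3 and 18.5 normalized counts in the libraries labelled Zhx1-KO against 0, 1.04 and 2.11 in 46C-Ctrl (log2 fold change 3.92, adjusted p = 0.00112 from limma). Shox2 and Isl1, homeobox factors of the node, did not pass (log2 fold changes 0.95 and -0.23, adjusted p = 0.146 and 0.311 from limma). Tbx18, Shox2 and Isl1 were added after their values were seen. Many of these factors are also expressed outside the node, and endoderm markers fell in the same libraries.

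Kcnh2 encodes the hERG channel, which carries the rapid delayed rectifier current. It had 119, 132 and 121 normalized counts in the libraries labelled Zhx1-KO (mean 124 ± 7.39, SD, n = 3), against 169, 138 and 173 in 46C-Ctrl (mean 160 ± 19.3, SD, n = 3). The ranges did not overlap, with 46C-Ctrl 2 close to the knockout libraries, and the log2 fold change of -0.36 (95% interval -0.68 to -0.03) did not pass (adjusted p = 0.0633 from limma). Without 46C-Ctrl 2 it passed, at -0.46 (adjusted p = 0.028 from limma). Kcnh2 lies on chromosome 5 from 24319589 to 24351604 on the minus strand.

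In the list of cardiac potassium channels, 6 of 12 tested genes rose, 2 fell and 4, with Kcnh2 among them, did not pass. Kcne3, a small subunit that pairs with potassium channel pores, had 66.5, 67.8 and 74.8 normalized counts in the libraries labelled Zhx1-KO and 0 reads in each library of 46C-Ctrl, which is at least 68.2-fold higher against a floor of 3 reads over the group (adjusted p = 2.1e-05 from limma). Kcnj2 and Kcnj12 encode inward rectifiers that hold the resting potential, and both rose (log2 fold changes 2.43 and 3.16, adjusted p = 5.4e-04 and 5.0e-04 from limma). Both genes lie on chromosome 11, where the median log2 fold change was 0.42. Kcnj5, a pore of the acetylcholine-gated channel of atrium and node, fell, with 15.1, 10.1 and 6.16 normalized counts in the libraries labelled Zhx1-KO against 89.7, 105 and 123 in 46C-Ctrl (log2 fold change -3.29, adjusted p = 1.6e-04 from limma).

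Sodium channel genes were split, with 3 of 11 tested higher, 3 lower and 5 not passing. The β subunit Scn4b had 5.04, 7.08 and 0.88 normalized counts in the libraries labelled Zhx1-KO against 80.9, 66.3 and 68.5 in 46C-Ctrl (log2 fold change -4.01, adjusted p = 6.6e-04 from limma).

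**Figure D4:**
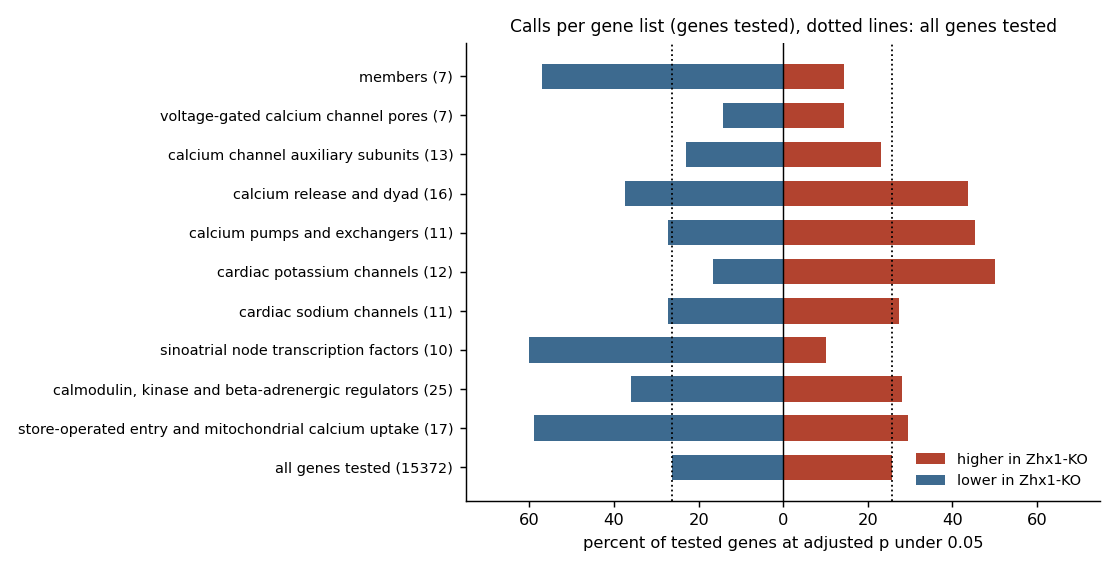
Percent of tested genes called lower (blue, left) and higher (red, right) in Zhx1-KO for the members and each gene list with at least 5 tested genes, with the number tested in parentheses; dotted lines give the 26.4% lower and 25.6% higher of all genes tested. The members, the sinoatrial node factors and the genes of store-operated and mitochondrial uptake reach past the line mainly on the lower side. The potassium channels and the pumps and exchangers do so mainly on the higher side.

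Levels were also compared between members, per kilobase of annotated exon. Atp2a2 was by far the highest, with a mean of 485 normalized counts per kilobase in the libraries labelled Zhx1-KO and 839 in 46C-Ctrl, and Pln was the lowest. In Zhx1-KO the order of the other members was Cacna1g (46.1), Kcnh2 (25.6), Slc8a1 (18.5), Hcn4 (18.3), Ryr2 (3.02) and Cacna1c (2.67), all in normalized counts per kilobase. Slc8a1 and Hcn4, and likewise Ryr2 and Cacna1c, could not be set in order there, since their libraries overlapped. In 46C-Ctrl it was Kcnh2 (33), Hcn4 (29.3), Cacna1g (20.8), Slc8a1 (20.2), Cacna1c (14.9) and Ryr2 (8.05) on the same scale, with overlap between Kcnh2 and Hcn4 and between Cacna1g and Slc8a1.

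Of the 8 members, 6 had an entry in the RefSeq promoter table (build GRCm38.p6), with 8 windows in all. The sequences before the start sites of 4 members are shown, namely the 3 members called lower that have an entry and Slc8a1, which did not pass, for contrast. Each is the 250 bases upstream of a RefSeq start, 5′ to 3′ in the direction of the gene, with GATA sites (GATA with A or T before it and A or G after it) and CCAAT boxes on either strand in capitals. These letters were chosen because Gata4 and Gata6 were much lower in Zhx1-KO. For Cacna1c the outermost of 3 starts is given.
Cacna1c, chr6:119196410-119196659, minus strand: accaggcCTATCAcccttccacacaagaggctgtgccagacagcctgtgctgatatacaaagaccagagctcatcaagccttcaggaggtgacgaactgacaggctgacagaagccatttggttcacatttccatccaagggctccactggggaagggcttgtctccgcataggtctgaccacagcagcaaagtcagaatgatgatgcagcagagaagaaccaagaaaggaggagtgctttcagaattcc
Ryr2, chr13:12106946-12107195, minus strand: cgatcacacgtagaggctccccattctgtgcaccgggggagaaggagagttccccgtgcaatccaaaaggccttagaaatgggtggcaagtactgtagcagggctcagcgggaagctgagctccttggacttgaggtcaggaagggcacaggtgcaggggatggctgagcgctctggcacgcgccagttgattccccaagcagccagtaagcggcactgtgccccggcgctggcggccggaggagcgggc
Hcn4, chr9:58822699-58822948, plus strand: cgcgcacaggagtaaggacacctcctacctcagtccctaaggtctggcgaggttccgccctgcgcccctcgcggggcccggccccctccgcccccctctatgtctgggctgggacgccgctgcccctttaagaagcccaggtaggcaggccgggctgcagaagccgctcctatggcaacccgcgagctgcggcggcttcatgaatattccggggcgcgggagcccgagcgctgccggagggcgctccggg
Slc8a1, chr17:81738388-81738637, minus strand: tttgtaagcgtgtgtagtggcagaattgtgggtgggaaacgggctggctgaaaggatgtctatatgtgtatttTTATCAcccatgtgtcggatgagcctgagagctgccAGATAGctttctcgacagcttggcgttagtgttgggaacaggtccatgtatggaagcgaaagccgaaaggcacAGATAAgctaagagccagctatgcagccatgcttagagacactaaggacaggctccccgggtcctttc

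A GATA site was found once before this start of Cacna1c, 3 times before Slc8a1 and 0 times before Ryr2 and Hcn4, and 26.5% of the 32851 promoter windows of the table held at least 1. None of the 4 windows held a CCAAT box, which 33.8% of all windows held. The Hcn4 window was rich in G and C (71.2%, against a median of 52.4% over all windows) and held 2 GC boxes (GGGCGG on either strand, in 32.7% of all windows). E-boxes (CANNTG, in 66.2% of all windows) were found once in the Cacna1c and Slc8a1 windows, 2 times in that of Ryr2 and 0 times in that of Hcn4. Of the windows not printed, that of Pln held 2 GATA sites, 1 CCAAT box and 1 TATA box (TATAAA, in 12.4% of all windows), and that of Kcnh2 held 3 GC boxes. Of the other windows of Cacna1c, 1 held 6 GC boxes and 0 GATA sites at 82.8% G and C, and the other held 1 GATA site and 1 CCAAT box. The part of GATA factors in the levels of the members was not tested. A match is a matter of letters, and binding was not measured here.

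The genes whose profile over the 6 libraries was most like that of each member were named by the root mean square difference of the centred log2 values. Cacna1c was nearest to Chmp4c and Ahnak (0.073 and 0.082), Atp2a2 to Cdh1 and Pacsin2 (0.038 and 0.04), Hcn4 to Nog and Carmil1 (0.064 and 0.08), and Kcnh2 to Ino80 and Snx8 (0.03 and 0.031). Cdh1, the epithelial cadherin, had 4690, 4702 and 5149 normalized counts in the libraries labelled Zhx1-KO against 8668, 7883 and 8824 in 46C-Ctrl, and is one of the epithelial markers above. Slc8a1 was nearest to Akirin1 and Kcnd1 (0.019 and 0.034), and Cacna1g to Gm16505 and Gabra3 (0.068 and 0.17). The nearest genes to Ryr2, Gm3604 and Aqp1, were less close (0.29 each).

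**Figure D5:**
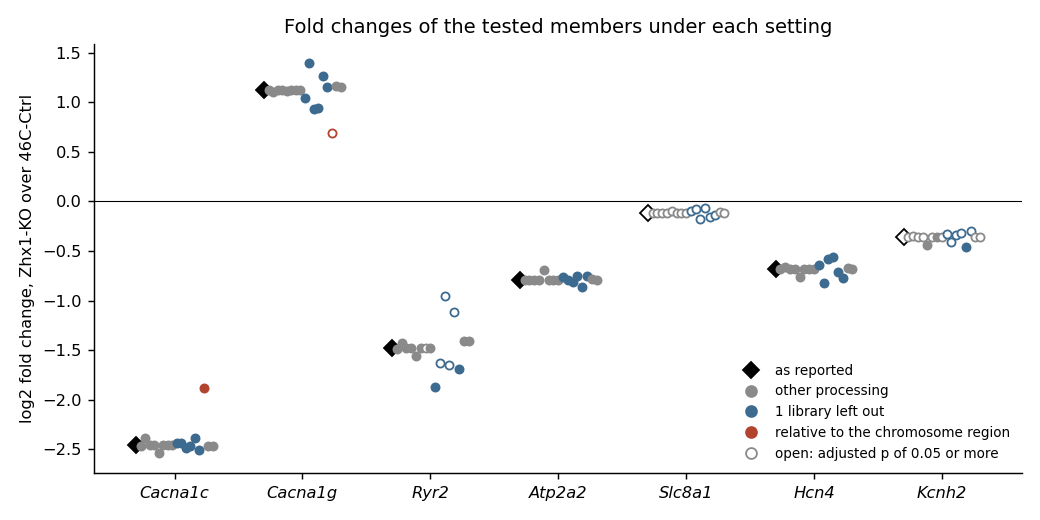
Log2 fold change (Zhx1-KO over 46C-Ctrl) of the 7 tested members as reported (diamonds) and under each other processing, library left out or chromosome reference (circles); open symbols have an adjusted p of 0.05 or more. Cacna1c, Atp2a2 and Hcn4 stay filled throughout, Ryr2 ranges from -1.87 to -0.95 with open symbols among them, and Cacna1g is open only relative to chromosome 11.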

How the data were processed

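PolyA RNA of CP cells was sequenced from 3 libraries labelled Zhx1-KO and 3 of 46C-Ctrl, grouped by the genotype label. The authors removed adapters with cutadapt 1.18, aligned the reads to GRCm38 by HISAT2 2.1.0 with the strand set, and the submitters' processing notes also name StringTie 1.3.4d, Cufflinks and DESeq2. The deposited values are a signal per gene symbol, namely gene counts that the authors divided by 1 size factor per library. The sources used here do not give the program that counted whole reads. In each library 100% of the values were within 0.01 of a whole multiple of 1 step, which gave the reads. All columns of per-sample values were used.

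limma 3.58.1 (R 4.3.3) was fitted to log2(value + 1) with the trend option and no term but group. It took the 15372 of 25701 genes whose 6 libraries averaged 10 or more, and p-values were adjusted by Benjamini-Hochberg across these. Calls needed an adjusted p under 0.05. Fold changes are on the log2(value + 1) scale, so those of low genes come out too small, and precision is limited by 3 libraries per group. On simulated data for this comparison, 58 of 99 genes changed 2-fold, 33 of 99 changed 1.5-fold and 4 of 14816 unchanged genes were called, of 15014 tested. Far fewer genes were changed there than the 52.0% called in the data, so these shares do not give the sensitivity of the real comparison.

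Positions and exon lengths (the union of all exons) are from GENCODE annotation of GRCm38, with a position for 15153 of the genes tested. The genes named are the members, Zhx1, the up to 4 called genes with the smallest adjusted p of each list, the tested family genes of the members, and the 2 genes nearest in profile to each member. Cacna1f, Cacna1i, Cacna1s, Mrln, Cep85l, Gm47644, Acta2 and Tagln are named beside these. Rem1, Rem2, Cacnb1, Cacng8, Jph1, Jph2, Jph4 and the cardiomyocyte markers given by name were added after their values were seen. Tbx18, Shox2 and Isl1 were added after their values were seen. Some genes that this rule selects are not reported here. The members and lists were chosen with earlier results of these data known. Alternatives were another pseudocount, filter or normalization, limma without trend, each library left out in turn, a block for the replicate number, and, for Cacna1c and Cacna1g, the median of their chromosome region. edgeR 4.0.16 and DESeq2 1.42.0 on the recovered reads were added after seeing the data.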

Additional observations from a re-analysis of the deposited data

How the results depend on the processing

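Each tested member was fitted under 16 other settings, and Cacna1c and Cacna1g also relative to their chromosome region. Cacna1c, Atp2a2, Hcn4 and Slc8a1 kept their direction and their side of the threshold in all of them, and Cacna1g in all but 1 (log2 fold change 0.69, adjusted p = 0.0566 from limma, relative to the median of chromosome 11). Ryr2 did not pass in limma without trend (-1.48, adjusted p = 0.0838) and ran from -1.87 to -0.95 with libraries left out in turn, while Kcnh2 passed with quantile normalization (-0.44, adjusted p = 0.0268) and without trend (-0.36, adjusted p = 0.0463) and ran from -0.46 to -0.30 with libraries left out. The cause was not tested. Members called lower numbered 3 to 4 with libraries left out and 4 to 5 in the other planned settings, beside 1 called higher in each.

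The replicate numbers did not pair the libraries (correlations of same-numbered deviations 0.004, -0.069 and 0.001), and with the replicate block 3625 genes were called higher and 3749 lower, against 3940 and 4058 without it. The count tests chosen after seeing the data called 7930 genes in edgeR and 7598 in DESeq2, and each called the same members as limma.

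Of 57 other named genes, 43 kept their direction and side of the threshold in all settings and 12 changed side in at least 1. Those that reversed had not passed: Hcn3 (-0.18 to 0.07 with libraries left out), Cacna1a (-0.58 to 0.07) and Akirin1 (0.01 with quantile normalization). Pln stays near the floor of what this depth shows, and its adjusted p without the filter was 0.218 in limma over 25701 genes.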

Other observations

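Of 25 tested genes of calmodulin, its kinases and the beta-adrenergic pathway, 7 rose, 9 fell and 9 did not pass, and their median log2 fold change was 0.06, beside 25.6% higher and 26.4% lower over all genes tested. Pde3a, a phosphodiesterase that breaks down cyclic AMP near SERCA2, had 182, 170 and 170 normalized counts in the libraries labelled Zhx1-KO against 599, 550 and 540 in 46C-Ctrl (log2 fold change -1.69, adjusted p = 5.3e-06 from limma). Ppp1r1a, an inhibitor of protein phosphatase 1, had 506, 571 and 415 against 161, 147 and 140 in the same order (1.72 on the log2 scale, adjusted p = 3.7e-05 from limma). Adcy5, an adenylyl cyclase of heart and brain, rose (1.13, adjusted p = 1.5e-04).

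Of 17 tested genes of store-operated calcium entry and mitochondrial calcium uptake, 5 rose, 10 fell and 2 did not pass, with a median log2 fold change of -0.24 (0.01 over all genes tested). Stim2, a calcium sensor of the endoplasmic reticulum, fell by 0.67 on the log2 scale (adjusted p = 3.7e-04 from limma), whereas Orai2, a pore that such sensors open, had 220, 189 and 220 normalized counts in the libraries labelled Zhx1-KO against 96.5, 74.5 and 89.6 in 46C-Ctrl (log2 fold change 1.27, adjusted p = 2.9e-04 from limma). The mitochondrial channels Vdac1 and Vdac2 moved in opposite directions (0.39 and -0.27 on the log2 scale, adjusted p = 4.3e-04 and 9.0e-04 from limma). Vdac1 lies on chromosome 11, where the median log2 fold change over 1185 genes tested was 0.42, so its rise was no larger than that of the chromosome.

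Some genes of the lists had few or no reads in 1 or 2 libraries of a group and many in the others. Chosen after their values were seen, these are Camk2b (140, 201 and 146 normalized counts in the libraries labelled Zhx1-KO, 56.6, 0 and 0 in 46C-Ctrl), Scn3b (0, 27.3 and 56.3 in Zhx1-KO, 172, 193 and 204 in 46C-Ctrl) and Synpo2 (7.05, 78.9 and 42.2 in Zhx1-KO, 62.4, 47.6 and 0 in 46C-Ctrl), beside Cacna1h and Ryr1. None of the 8 members other than Pln had a 0 in any library.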
